A study of Homo sapiens with 6 samples.

Results

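The HOX genes are the human genes named HOXA, HOXB, HOXC or HOXD with a number. They were taken by symbol from the protein-coding genes of the RefSeq annotation of GRCh38, which gave 39 members of 19821 protein-coding genes: 11 in HOXA on chromosome 7, 10 in HOXB on chromosome 17, 9 in HOXC on chromosome 12 and 9 in HOXD on chromosome 2. The measurement was MapR, in which RNase H joined to micrococcal nuclease (RH-MNase) is brought to RNA-DNA hybrids and the chromatin released around them is sequenced. R-loops, in which RNA is paired with 1 DNA strand and the other strand is displaced, are the structures it maps. The cells were wild-type IMR90, a single line of embryonic human lung fibroblasts, kept at 2% oxygen in medium with 10% serum. Proliferating cells carried a control vector, senescent cells expressed introduced Ras, and quiescent cells had been starved. The 10% serum is listed for all 3 states, so the medium used for starvation is not clear from it. All 3 states are the same line, and the labels do not name the form of Ras. Each state has 1 RH-MNase peak list, and the libraries made with GST-MNase, the background enzyme, were not analysed here.

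HOX genes encode homeodomain transcription factors that give cells an address along the body axes. Within a cluster the genes stand in the order in which they are used from head to tail, low numbers first, and genes with the same number in different clusters are paralogs. Polycomb and trithorax proteins hold parts of a cluster silent or active through cell divisions, and fibroblasts keep the HOX pattern of the site they came from. In lung mesenchyme the low-numbered and middle HOXA and HOXB genes are the ones known to act, with HOXA5 needed for normal airways and HOXB5 known from airway branching, while the high-numbered genes are better known from the limbs, the genital tract and the tail end.

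HOXA and HOXB lay for the most part under R-loop peaks in proliferating cells, while HOXC and HOXD held scattered peaks. The covered percent is the share of a gene plus 1000 bp on each side that lies under peaks. Its mean in proliferating cells was 70.4% in HOXA (SD 21.1 across 11 genes), 67.1% in HOXB (SD 31.5, 10 genes), 21.8% in HOXC (SD 10.1, 9 genes) and 17.9% in HOXD (SD 20.7, 9 genes), against 12.7% over all protein-coding genes. In senescent cells the means were 33.5% (SD 19.5), 42.4% (SD 25.0), 7.11% (SD 7.73) and 3.36% (SD 6.43), against 8.04%. The quiescent means were 3.44% (SD 6.38) for HOXA and 4.49% (SD 5.83) for HOXB, no HOXC or HOXD gene had a quiescent peak, and the mean over all genes was 0.985%. Of the 39 members, 33 are at most 10000 bp long. Over all protein-coding genes up to that length the mean was 23.6% for proliferating cells, with senescent and quiescent values of 14.9% and 1.91%. The HOXA and HOXB means stood above these values in each state, and those of HOXC and HOXD below. The cluster means also include the longer members. HOXA led in proliferating cells and HOXB in the other states, by less than the spread across genes. These SDs run over genes, which share peaks, and are no measure of error between cultures.

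The sequences at the starts of 6 members are shown because some starts were filled by peaks and others bare. They are those of the member with the most senescent cover in each cluster among those in the RefSeq promoter table, which for HOXB holds HOXB1 alone, and of HOXD12 and HOXD4, which had no proliferating peak. Each window of 300 bases runs from 250 bases before to 50 after the start listed first for the gene. Further starts of a gene were not looked at, here or in the counts of windows below. The windows are printed 5′ to 3′ along the gene, with runs of at least 4 G in capitals. The windows on GRCh38.p14 are HOXA6 at chr7:27147725-27148024 (minus strand), HOXB1 at chr17:48530962-48531261 (minus), HOXC5 at chr12:54016638-54016937 (plus), which is also the listed start of HOXC4, HOXD8 at chr2:176129455-176129754 (plus), HOXD12 at chr2:176099545-176099844 (plus) and HOXD4 at chr2:176151300-176151599 (plus).
HOXA6: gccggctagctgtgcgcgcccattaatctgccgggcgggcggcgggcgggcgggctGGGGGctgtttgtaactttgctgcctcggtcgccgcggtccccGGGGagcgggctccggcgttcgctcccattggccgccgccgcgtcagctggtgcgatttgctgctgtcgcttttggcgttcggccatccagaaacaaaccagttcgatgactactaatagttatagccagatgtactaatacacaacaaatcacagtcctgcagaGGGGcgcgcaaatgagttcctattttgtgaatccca
HOXB1: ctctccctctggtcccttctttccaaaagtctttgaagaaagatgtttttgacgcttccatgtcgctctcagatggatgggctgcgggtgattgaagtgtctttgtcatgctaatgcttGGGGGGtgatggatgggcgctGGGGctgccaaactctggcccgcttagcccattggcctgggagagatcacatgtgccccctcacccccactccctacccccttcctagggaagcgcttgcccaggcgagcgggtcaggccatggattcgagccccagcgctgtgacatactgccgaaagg
HOXC5: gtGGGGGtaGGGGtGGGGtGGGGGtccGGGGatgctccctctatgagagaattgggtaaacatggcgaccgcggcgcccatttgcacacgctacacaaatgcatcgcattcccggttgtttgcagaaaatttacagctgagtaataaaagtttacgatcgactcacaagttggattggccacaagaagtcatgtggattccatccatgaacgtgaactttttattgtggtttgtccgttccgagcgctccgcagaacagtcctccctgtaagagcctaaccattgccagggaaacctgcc
HOXD8: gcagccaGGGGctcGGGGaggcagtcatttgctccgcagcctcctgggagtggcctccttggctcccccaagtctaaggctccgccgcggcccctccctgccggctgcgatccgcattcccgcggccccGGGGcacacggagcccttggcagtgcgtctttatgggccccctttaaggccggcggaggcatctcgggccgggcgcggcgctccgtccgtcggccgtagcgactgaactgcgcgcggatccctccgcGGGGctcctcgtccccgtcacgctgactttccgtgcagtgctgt
HOXD12: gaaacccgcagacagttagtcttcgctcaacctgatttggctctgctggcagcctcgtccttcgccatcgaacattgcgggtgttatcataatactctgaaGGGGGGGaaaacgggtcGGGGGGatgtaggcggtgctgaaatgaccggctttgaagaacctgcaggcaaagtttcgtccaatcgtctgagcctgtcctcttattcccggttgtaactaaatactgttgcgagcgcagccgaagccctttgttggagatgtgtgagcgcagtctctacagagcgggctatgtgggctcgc
HOXD4: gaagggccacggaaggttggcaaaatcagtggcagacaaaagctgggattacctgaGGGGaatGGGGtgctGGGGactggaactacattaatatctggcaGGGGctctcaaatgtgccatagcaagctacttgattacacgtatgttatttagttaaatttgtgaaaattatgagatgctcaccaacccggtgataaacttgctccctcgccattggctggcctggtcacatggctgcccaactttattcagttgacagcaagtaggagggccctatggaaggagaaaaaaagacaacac

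In proliferating cells the HOXA6 window was under peaks over 100% of its length and the HOXD8 window over 84.3%; the windows of HOXB1, HOXC5, HOXD12 and HOXD4 were bare. None of the 6 was covered in senescent or quiescent cells. Runs of GGGG stood on the printed strand of all of them, 3 in HOXA6, 2 in HOXB1, 5 in HOXC5, 4 in HOXD8, 2 in HOXD12 and 4 in HOXD4. This motif was present on that strand in 80.6% of 15812 promoter windows of protein-coding genes and on either strand (GGGG or CCCC) in 93.6%, so its presence does not set these apart. GC content was 60.3% for HOXA6 and 71.7% for HOXD8, and 58.0%, 51.7%, 54.3% and 47.3% for the bare windows of HOXB1, HOXC5, HOXD12 and HOXD4.

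The promoter table held 20 of the 39 members, too few for a comparison of base composition over all HOX genes, which is void. It held 9 of 11 HOXA and 8 of 9 HOXD genes, so these clusters could be set side by side. A proliferating peak touched 9 of 9 HOXA windows, 8 of them over their whole length and that of HOXA7 over 5%, and 2 of 8 HOXD windows (HOXD1, 47.0% of the window, and HOXD8), against 68.8% of all windows. A senescent peak touched 3 of 9 HOXA windows, those of HOXA2, HOXA4 and HOXA11, over 100% of each, and 0 of 8 HOXD windows, against 51.7% of all. A quiescent peak touched none of either, against 16.3% of all. Median GC content was 56.7% in the HOXA windows (46.3% to 76.3%) and 61.2% in the HOXD windows (47.3% to 74.3%). The less covered cluster thus had the higher median, and the ranges overlapped almost entirely. Over all promoter windows, cover rose with GC content up to 72.0%. Mean proliferating cover was 20.9% in windows of at most 51.3% GC, 84.7% at 66.0% to 72.0% and 79.2% above. Senescent means in these groups were 9.81%, 56.9% and 43.6%. A link between GC content and the cover of HOX genes was not tested.

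**Figure D1:**
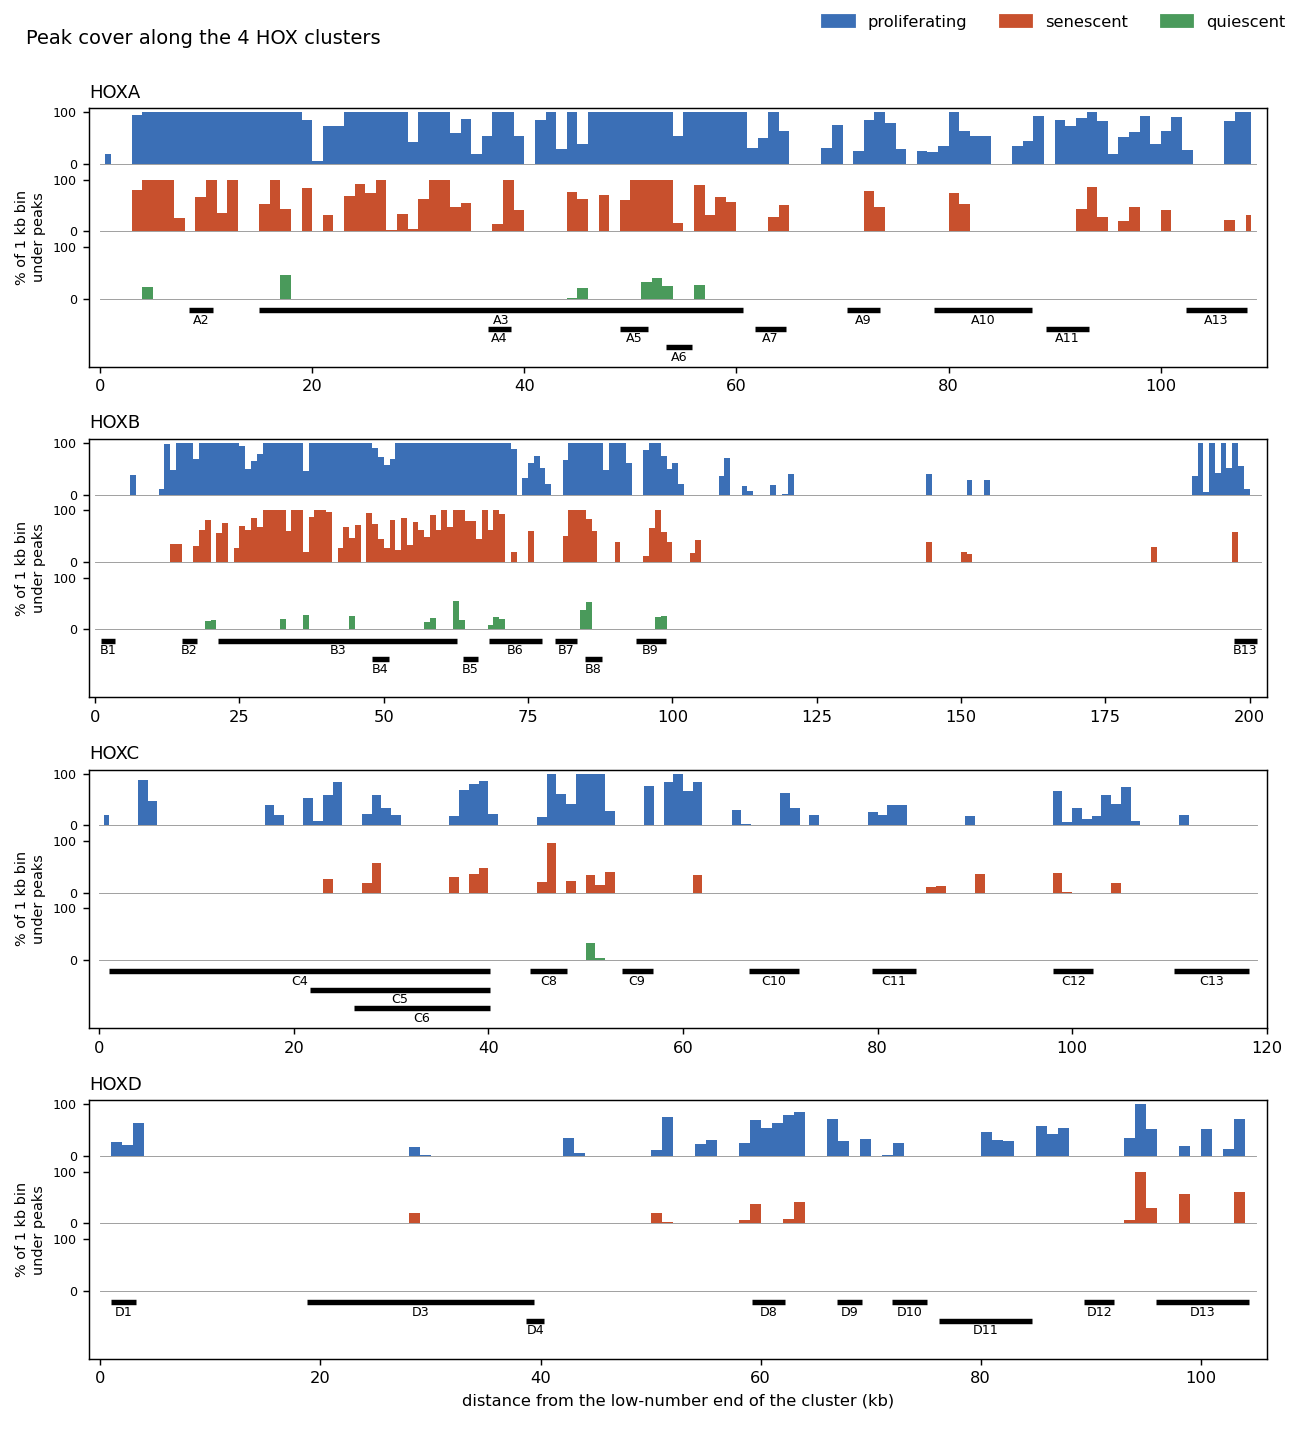
Percent of each 1 kb bin under peaks (vertical axis, 0 to 100 for each state) against the distance in kb from the low-number end of the HOXA, HOXB, HOXC and HOXD clusters, for proliferating (blue), senescent (orange) and quiescent (green) cells, with genes named in the text as black bars below. Proliferating cover fills most of HOXA and of HOXB2 to HOXB9, and is broken into separate peaks in HOXC and HOXD.

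The whole stretch of each cluster, from 1000 bp outside the first HOX gene to 1000 bp outside the last, repeated this division. HOXA on chromosome 7 was covered over 68.4% in proliferating cells, 32.1% in senescent and 1.95% in quiescent ones. HOXB from HOXB1 to HOXB9 (chromosome 17, 48527526 to 48627358) was 75.1%, 45.9% and 4.04% covered, and the whole of HOXB to HOXB13, with the long gap before that gene, 42.0%, 23.8% and 1.99%. HOXC (chromosome 12, 53937831 to 54057030) had 20.4%, 5.02% and 0.297%, and HOXD (chromosome 2, 176086487 to 176191907) had 13.9%, 3.71% and 0%. Tiling the genome in windows of 100 kb gave 30285 windows, a length close to that of these stretches. In proliferating cells 0 windows had a higher covered percent than HOXA or than HOXB1 to HOXB9, 510 (1.68%) had a higher one than HOXC and 1299 (4.29%) than HOXD. In senescent cells the numbers were 10 for HOXA, 0 for HOXB1 to HOXB9, 3042 (10.0%) for HOXC and 4281 (14.1%) for HOXD. The whole of HOXB, which is longer than a window, had 19 windows above it in proliferating and 74 in senescent cells. In quiescent cells 339 windows (1.12%) stood above HOXA and 42 (0.139%) above HOXB1 to HOXB9.

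The edges of the covered stretches lay near the ends of the clusters in some places and not in others. The 50 kb beyond the low-number end of HOXA were 2.47% covered in proliferating cells, and those beyond HOXA13, where EVX1 lies, 30.9%. Beyond HOXB1 the value was 22.5%. HOXB13 stands apart from the rest of its cluster, and the gap of 96.4 kb between HOXB9 and HOXB13 was 8.10% covered in proliferating cells, 1.72% in senescent and 0% in quiescent ones. Beyond the low-number ends of HOXC and HOXD the proliferating values were 3.60% and 0%, and beyond their high-number ends 0.722% and 7.88%.

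Single peaks of unusual width made up most of the HOXA and HOXB cover. The widest of all 101802 proliferating peaks, 21564 bp, lay in HOXB (chromosome 17, 48578840 to 48600403) and ran over the whole of HOXB5 and reached HOXB3, HOXB6 and the flank of HOXB4. A peak of 16822 bp over HOXA2 and its neighbours (chromosome 7, 27095033 to 27111854) had 2 wider ones in the list, and a peak of 11918 bp in HOXB3 that reached HOXB4 had 11. Of 34 proliferating peaks in HOXA 9 were over 2000 bp wide, of 33 in HOXB 8, of 33 in HOXC 1 and of 23 in HOXD 0. The senescent list had 3 such peaks in HOXA and 7 in HOXB, with a widest of 4767 bp over HOXA5 and HOXA6 and of 5021 bp inside HOXB3; the quiescent list had none. The median peak width was 1244 bp in HOXA, 932 bp in HOXB, 477 bp in HOXC and 549 bp in HOXD in proliferating cells, against 550 bp over the whole list.

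In score, a whole number given by the authors for each peak on a scale that is not stated, HOX peaks differed between the clusters. The highest proliferating score in a cluster was 83, for a peak of 932 bp inside HOXB6 (chromosome 17, 48602208 to 48603139), and at or above 99.3% of that list. The highest in HOXA, HOXC and HOXD were 60, 47 and 35. Median scores in proliferating cells were 28 in HOXA and in HOXB, 17 in HOXC and 16 in HOXD, with 22 over the whole list. Within HOXB1 to HOXB9 the median was 47.5, at the percentile 88.8 of that list.

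Most members had at least 1 peak, and so did most other genes. A peak lay in the gene or its flanks for 36 of 39 members in proliferating cells (92.3%, 95% Wilson interval 79.7 to 97.3, against 83.4% of protein-coding genes), for 29 in senescent cells (74.4%, 58.9 to 85.4, against 80.3%) and for 10 in quiescent cells (25.6%, 14.6 to 41.1, against 34.4%). A peak within 1000 bp of either annotated end was present in 34, 27 and 9 members, against 75.9%, 70.3% and 27.7% of all genes. The intervals cover counting error only and are too narrow, because 22 of the 91 proliferating peaks at members touched more than 1 of them, and up to 4. It is the amount of cover, not the presence of a peak, in which the HOX genes stood high: 17 members had at least 50% of the locus covered in proliferating cells, against 4.93% of all genes, 7 in senescent cells, against 1.62%, and 0 in quiescent cells, against 0.0151%. These 17 were 8 HOXA genes, 8 HOXB genes and HOXD8. Among genes of at most 10000 bp, the shares at 50% or more were 15.3%, 5.43% and 0.0539%, with 15, 6 and 0 of 33 HOX genes of that length.

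**Figure D2:**
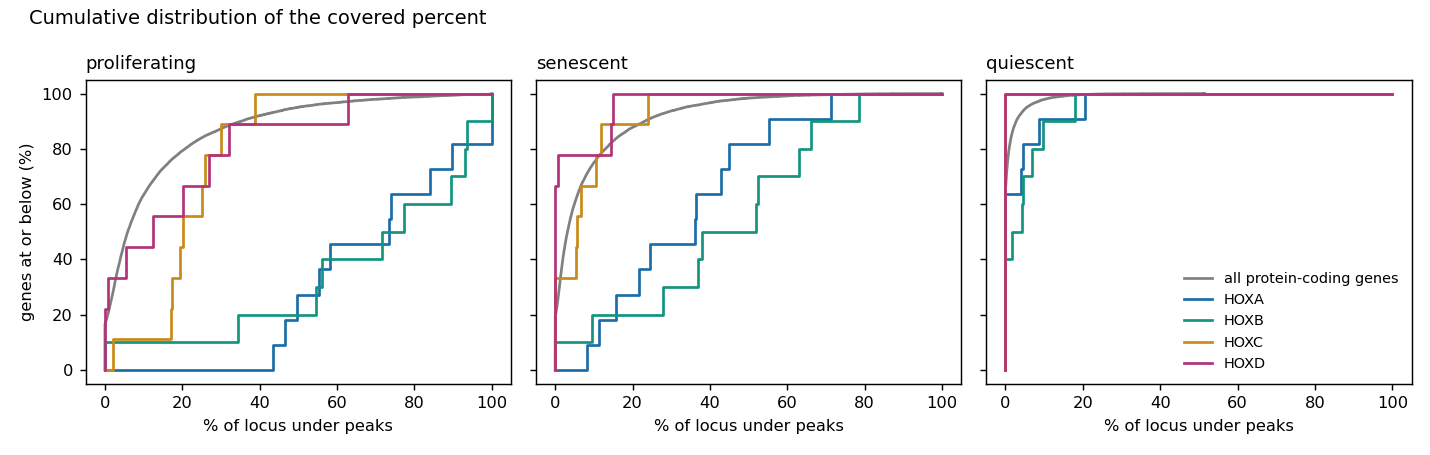
Cumulative distribution of the covered percent of each gene plus 1000 bp (horizontal axis) for the genes of each cluster and for all 19821 protein-coding genes (grey), in the 3 peak lists; the vertical axis gives the percent of genes at or below a value. The HOXA and HOXB steps lie far to the right of the grey curve in proliferating and senescent cells, while the HOXC and HOXD steps lie nearer to it.

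Taking the members in the order of the body axis, the anterior genes of paralog groups 1 to 3 came first. HOXA2, which patterns the hindbrain, had 100% of its locus under proliferating, 42.9% under senescent and 0% under quiescent peaks, and HOXB2 93.0%, 27.8% and 0%. HOXA3, a gene needed for thymus and parathyroid, had 84.1%, 44.9% and 3.98%, and HOXB3 had 93.7%, 66.1% and 4.19%. The annotated spans of HOXA3 and HOXB3 are 45574 and 41372 bp long and run across HOXA4 to HOXA6 and HOXB4, so their values repeat those of their neighbours in part. HOXB1, a hindbrain gene at the end of its cluster, had no peak in any list, although HOXB2 beside it was nearly filled. HOXD1 had proliferating peaks over 26.8% and no other. HOXD3, with 0.864% in proliferating and 0.868% in senescent cells, was the only HOX gene with a peak whose senescent value was not below the proliferating one.

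The central genes of groups 4 to 8 held the 2 highest senescent values, at HOXB5 and HOXA5, and HOXA5 and HOXB5 shared the highest proliferating value with HOXA2. HOXA5, which is needed in lung mesenchyme for airway and alveolar development, had 100% covered in proliferating cells, 71.3% in senescent and 8.64% in quiescent ones. HOXB5, its paralog, had 100%, 78.5% and 9.75%, the highest senescent value of all members. HOXA6 had 89.7%, 55.3% and 20.6%, the highest quiescent value, and HOXB8 had 89.5%, 52.6% and 18.1%. HOXA4 had 73.4%, 36.5% and 0%, and HOXB4, a gene known from blood stem cells, 77.4%, 63.0% and 0%. HOXB6 had 71.6%, 36.8% and 4.56%. HOXB7 had 54.7% and 51.8%, nearly the same in both states, and 1.64% in quiescent cells, whereas HOXA7 went from 55.2% to 15.8% and had no quiescent peak. The paralogs in the other clusters were much lower: HOXC5 had 30.1% and 10.6%, HOXC6 25.8% and 11.9%, HOXC4 20.3% and 5.28%, and HOXD4 had no peak. HOXC4, HOXC5 and HOXC6 share an annotated start and therefore several peaks. HOXC8 (38.7% and 24.0%) and HOXD8 (62.9% and 14.9%) were the most covered genes of their clusters in both states.

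The posterior genes of groups 9 to 13 had less cover on average than the central genes in all 3 states. HOXA9, a gene known from blood progenitors, had 58.2% in proliferating and 24.5% in senescent cells, HOXA10 46.4% and 11.3%, HOXA11 74.0% and 21.6%, and HOXA13, which patterns hand and foot, 49.6% and 8.26%. None of these 4 had a quiescent peak. HOXB9 had 56.1%, 37.9% and 6.75% and was the only posterior gene with a quiescent peak. HOXB13, known from the prostate, had 34.5% and 9.55%. HOXC9 had 17.0% and 5.58% and HOXC12 25.2% and 6.61%, while HOXC10 (17.4%), HOXC11 (19.3%) and HOXC13 (2.05%) had no senescent peak. In HOXD the genes HOXD9 (32.0%), HOXD10 (5.37%) and HOXD11 (12.4%), known from limb patterning, had proliferating peaks alone, and HOXD12 had none. HOXD13 at the outer end had 20.3% in proliferating and 14.4% in senescent cells.

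**Figure D3:**
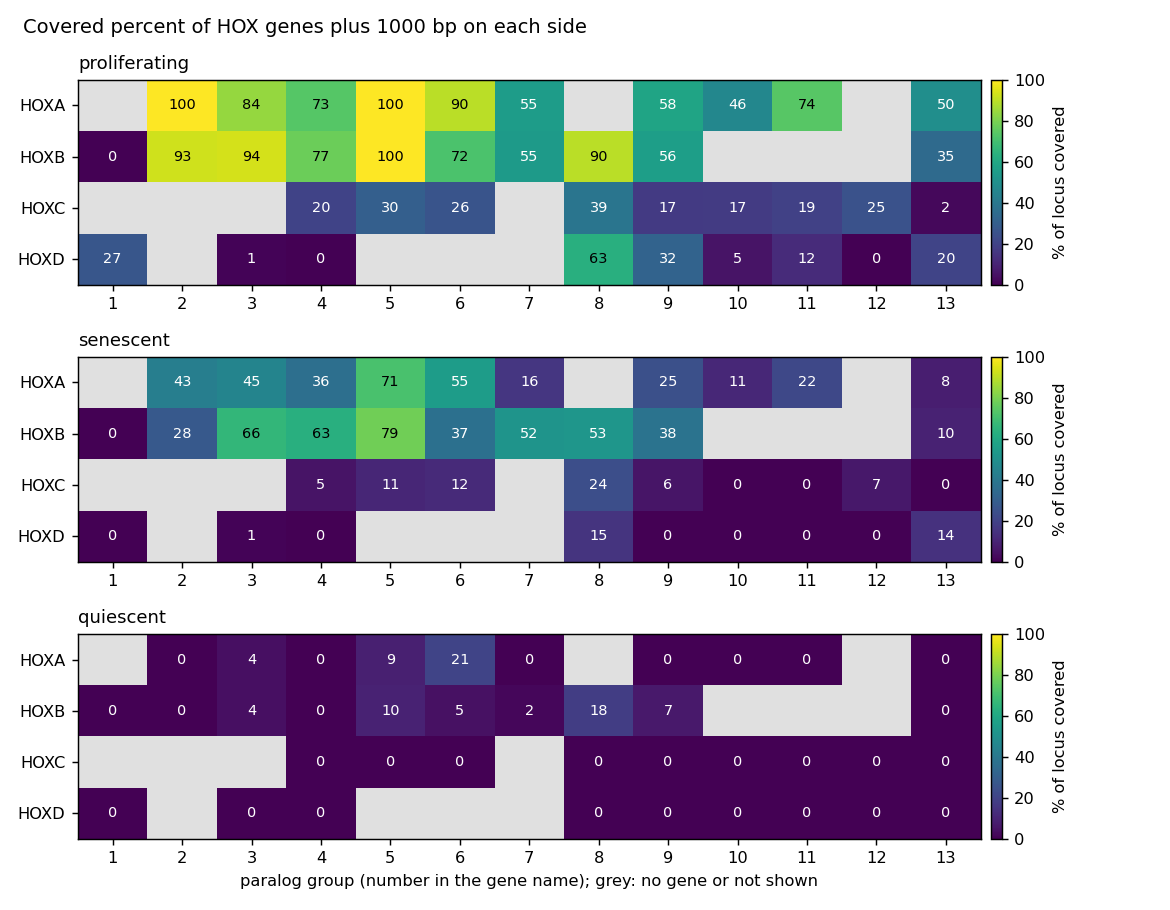
Percent of 38 HOX genes plus 1000 bp under peaks, by cluster (rows) and paralog group (columns), in proliferating, senescent and quiescent cells; grey fields hold no gene or are not shown. HOXA2, HOXA5 and HOXB5 are at 100% in proliferating cells, and quiescent values above 0 appear between groups 3 and 6 of HOXA and between groups 3 and 9 of HOXB.

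Grouped by position, the 8 anterior members had a mean of 55.2% in proliferating cells (SD 42.6), the 15 central members 59.3% (SD 30.8) and the 16 posterior members 29.4% (SD 22.0). In senescent cells the means were 27.3% (SD 24.9), 35.2% (SD 25.5) and 8.74% (SD 11.1), and in quiescent cells 1.59%, 4.22% and 0.422%. The classes hold different clusters. HOXC has no anterior gene and HOXD 2 of the 8, while each of them gives 5 of the 16 posterior genes. The proliferating contrast was not kept when wide peaks were left out. Without peaks over 2000 bp the difference between anterior and posterior means went from 25.9 to -12.4 points. That between HOXA2 to HOXA7 and HOXA9 to HOXA13 went from 26.7 to -15.5 points. The filter sets filled loci such as HOXA2 and HOXA5 to 0%, so this sign change does not show how the contrast arises. In senescent cells the same differences went from 18.6 to 7.69 and from 28.0 to 6.86 points. With each list reduced to its 9736 highest-scoring peaks they were 45.5 and 56.1 points in proliferating and 3.54 and 0.865 points in senescent cells. Without HOXA3, HOXB3, HOXC4 and HOXC5, whose spans overlap other members, the anterior to posterior difference was 14.6 and 9.21 points in the 2 states. HOXD3, an anterior gene whose span overlaps HOXD4 in part, was kept in this setting. Within HOXA the central and posterior classes had 79.6% and 57.0% in proliferating and 44.7% and 16.4% in senescent cells. Spearman's rho of the covered percent with the paralog number in HOXA was -0.28 in proliferating and -0.67 in senescent cells, and -0.79 for the ratio of senescent to proliferating values. In HOXB the same coefficients were -0.26, 0.006 and -0.22 (9 genes for the ratio), in HOXC -0.57, -0.51 and -0.56 (9 genes), and in HOXD -0.11, 0.04 and -0.04 (7 genes for the ratio). The genes of a cluster share peaks and the library, so these coefficients are descriptions of single clusters.

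The same contrast along HOXA showed without the annotation. Cut at its midpoint, the 54.5 kb on the low-number side were 81.6% covered in proliferating cells, 47.7% in senescent and 3.41% in quiescent ones. The 54.5 kb on the HOXA13 side were 55.3%, 16.6% and 0.482% covered. The senescent to proliferating ratio was thus 0.584 on the first side and 0.300 on the second. HOXB1 to HOXB9 had no such step, with ratios of 0.610 and 0.612. With HOXB13 and the gap before it, HOXB had 0.606 on the low-number side and 0.243 on the high-number side. That high-number side begins beyond HOXB9 and holds HOXB13 as its only HOX gene. It was 9.08% covered in proliferating cells and had 5 senescent peaks. This cut therefore sets HOXB1 to HOXB9 against the gap and HOXB13, unlike that of HOXA, which has HOX genes on both sides. HOXC had 0.278 on the low-number and 0.185 on the high-number side, with 8 and 5 senescent peaks. HOXD had 0.162 and 0.289, with 2 and 5 senescent peaks. This difference between the sides of HOXA rests on single libraries and has no test.

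When proliferating cells were compared with senescent cells, the question of how R-loops change in Ras-induced senescence, cover was lower in senescent cells by at least 1.5-fold in 27 of the 36 members covered in either list, against 57.8% of all genes so covered. It was higher by that fold in 0 members, against 7.08% of all genes. Among genes of at most 10000 bp the lower share was 53.1% and the higher share 8.7%, with 23 and 0 of 30 HOX genes. Counting any difference, 35 members were lower (84.5% of all genes) and 1, HOXD3, higher (15.4%). The 27 were 9 of 11 HOXA genes, 4 of 9 HOXB genes, 9 of 9 HOXC genes and 5 of 7 HOXD genes. Ratios of the cluster means were 0.476 for HOXA, 0.633 for HOXB, 0.327 for HOXC and 0.188 for HOXD, and 0.634 over all protein-coding genes. The 9 members that did not pass the fold included HOXA5, HOXB3, HOXB4, HOXB5, HOXB7, HOXB9, HOXD3 and HOXD13. With the proliferating list shortened by score until it covered as many bases as the senescent one, 17 of 31 members were lower (34.9% of all genes) and 5 were higher (21.8%), namely HOXC8, HOXC9, HOXC12, HOXD3 and HOXD13. The ratio for HOXC then turned to 1.10, and that for HOXD went from 0.188 to 0.577, while those for HOXA (0.501) and HOXB (0.645) moved little. Whether a smaller covered percent stands for fewer cells with an R-loop or for fewer R-loops in each cell cannot be told apart.

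Leaving out peaks over 2000 bp took away most of the HOXA and HOXB cover of proliferating cells, and this alternative changed the result. The mean over the 39 members was then 16.0% in proliferating and 13.5% in senescent cells, 18 members were lower in senescent cells (41.9% of all genes) and 11 were higher (25.2%). All 11 were HOXA or HOXB genes. HOXB4 for example had 27.0% and 63.0%, against 77.4% and 63.0% with all peaks. The ratios of the cluster means turned direction in HOXA, from 0.476 to 1.13, and in HOXB, from 0.633 to 2.43. Those of HOXC and HOXD were 0.341 and 0.188. The filter takes out wide proliferating peaks but keeps narrower senescent peaks at the same places. HOXA2, for example, went from 100% to 0% in proliferating cells and stayed at 42.9% in senescent ones. The turned ratios and the 11 higher members therefore do not show that senescent cells had more cover there.

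**Figure D4:**
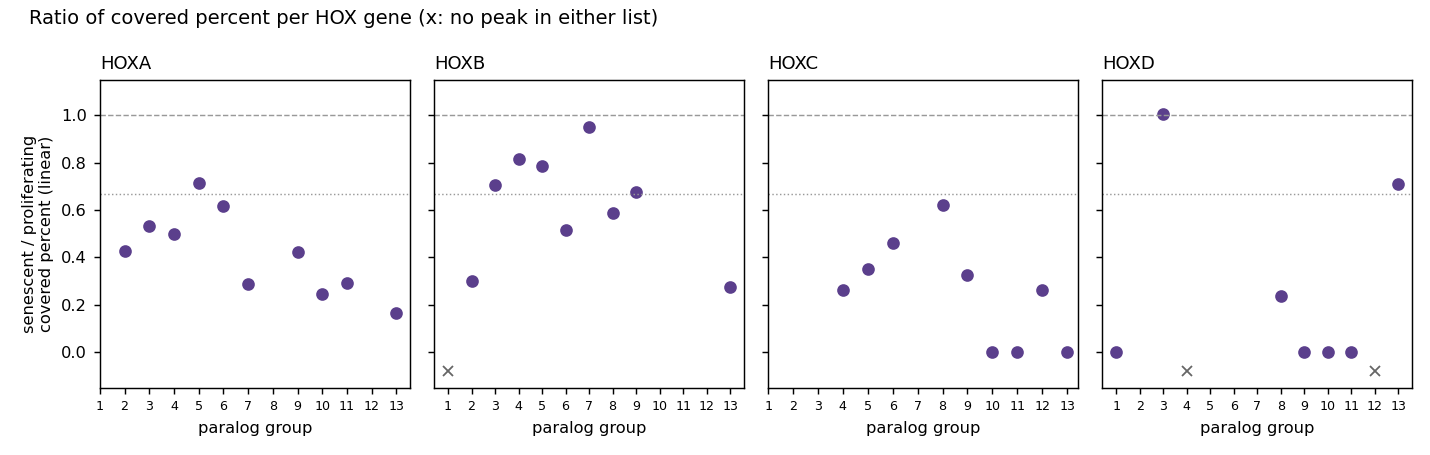
Ratio of the covered percent in senescent to that in proliferating cells (linear axis) for 38 HOX genes, by cluster and paralog group; the dashed line marks equal cover, the dotted line a 1.5-fold lower value, and a cross a gene without a peak in either list. Among the HOXA genes shown the ratio is highest at HOXA5 (0.713) and lowest at HOXA13 (0.167), HOXB3 to HOXB9 lie between 0.514 and 0.948, and 7 HOXC and HOXD genes lie at 0.

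Senescent HOX peaks lay mostly where proliferating cells also had peaks. Of 89 senescent peaks in the 4 clusters 84 overlapped a proliferating peak by at least 1 bp (94.4%, 95% Wilson interval 87.5 to 97.6), against 65.7% of the whole senescent list. How far the width of the proliferating peaks adds to this share was not tested. In the other direction 48 of 123 proliferating peaks overlapped a senescent one (95% Wilson interval 30.9% to 47.9%), against 49.9% of the whole list. By cluster this share was 17 of 34 peaks in HOXA, 15 of 33 in HOXB, 10 of 33 in HOXC and 6 of 23 in HOXD.

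Quiescent cells held 18 small peaks in the clusters, and each of them overlapped both a proliferating and a senescent peak; in the whole quiescent list 99.4% and 94.1% did so. HOXA held 6, of which 5 lay in the long span of HOXA3; 2 of these touched HOXA3 alone and 3 lay around HOXA5 and HOXA6, with the last at 27148432 to 27148694 between HOXA6 and HOXA7. No quiescent peak lay from HOXA7 to HOXA13. HOXB held 11, of which 4 lay inside HOXB3 alone, and the others at HOXB5, HOXB6, HOXB7, HOXB8, HOXB9 and between HOXB2 and HOXB3. The only one in HOXC (chromosome 12, 54006000 to 54006353, score 33) lay between HOXC8 and HOXC9 outside the flanks of either gene, and HOXD had none. The widest was 715 bp, at the end of HOXB3 nearest HOXB5. Cover was lower in quiescent than in proliferating cells by at least 1.5-fold in 36 of 36 members (99.8% of all genes) and lower than in senescent cells in 29 of 29 (97.5%), so nearly every gene behaved in this way. The quiescent list holds 9736 peaks against 101802 and 85564, and its depth is unknown.

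With each list reduced to its 9736 highest-scoring peaks, 14 members had a proliferating, 5 a senescent and 10 a quiescent peak, against 36.9%, 28.9% and 34.4% of all genes. The mean covered percent was then 24.4% in proliferating cells, 4.74% in senescent and 2.12% in quiescent ones. The 14 proliferating members included HOXA2, HOXA3, HOXA5, HOXA6, HOXA7, HOXA9 and HOXB2 to HOXB8. A gene-end peak was present in 14 of the proliferating (30.4% of all genes) and 4 of the senescent members (19.8%), and 13 members were lower in senescent cells (59.5%). With only peaks at or above the median score, 17 members had a senescent gene-end peak (55.7% of all genes), and 6 had a quiescent peak (20.1%), 5 of them at a gene end (15.4%). With no flank, a peak lay on the very end of 19 members in proliferating (64.4% of all genes), 13 in senescent (41.9%) and 2 in quiescent cells (10.1%), and 6 had a quiescent peak (28.7%). With flanks of 500 bp, 4 had a quiescent gene-end peak (24.1%).

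Several RNAs that do not encode protein arise from the clusters, and most of their loci held proliferating peaks. The peak lists carry no strand, so the cover of a gene and of an antisense partner over it cannot be told apart. Of 18 lncRNA genes 16 had a proliferating peak (49% of all lncRNA genes), 12 a senescent peak (45.7%) and 5 a quiescent one (11.3%). HOTAIRM1, beside HOXA2, had 100%, 69.6% and 3.71% of its locus covered. HOTTIP, beyond HOXA13, had 74.8% in proliferating and 8.55% in senescent cells. HOXB-AS2 had 93.0% and 88.8%, HOXB-AS1 96.5% and 37.5%, and HOXC-AS1, with 53.6% in proliferating cells, had no senescent peak. HOTAIR, the HOXC transcript studied for Polycomb recruitment, had 6.25% and 4.08%, HAGLR in HOXD 5.10% and none, and HAGLROS and HOXC13-AS had no peak. The 1.5-fold rule called 13 of 16 lower in senescent cells, against 54.1% of lncRNA genes, and 0 higher, against 16.1%.

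The clusters also hold microRNA genes of shared families, whose mature forms are known to repress HOX messages. They are shown because copies of 1 family lie in clusters with different cover. The sequences are from RefSeq on GRCh38.p14, 5′ to 3′ with the seed (bases 2 to 8) in capitals; miR-10a-5p lies at chr17:48579904-48579926 (minus strand) and miR-196b-5p at chr7:27169528-27169549 (minus), and the single miR-196a-5p sequence comes from MIR196A1 at chr17:48632532-48632553 (minus) and MIR196A2 at chr12:53991762-53991783 (plus).
miR-10a-5p: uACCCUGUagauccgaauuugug
miR-196a-5p: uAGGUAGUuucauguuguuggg
miR-196b-5p: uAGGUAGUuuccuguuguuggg

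miR-196a and miR-196b share the seed AGGUAGU, and their 3 genes lie in 3 clusters. Proliferating peaks covered 21.7% at MIR196B in HOXA and 15.9% at MIR196A2 in HOXC, and neither had another peak. MIR196A1, beyond HOXB9, had no proliferating peak and 22.6% covered in senescent cells. MIR10A, between HOXB4 and HOXB5, had 99.9% in proliferating and 60.5% in senescent cells, and its family member MIR10B in HOXD had no peak in any list. MIR615 in HOXC had 36.3% and 12.8%. With flanks of 1000 bp these loci measure the surroundings of a very short gene.

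Genes that border the clusters had little cover apart from PRAC1, EVX1 and EVX2, the shortest of the 12. These are 800, 5029 and 6491 bp long, and the other neighbours at least 18936 bp. Closeness to a cluster and gene length can therefore not be told apart here. The median of 12 neighbours was 4.75% in proliferating and 1.46% in senescent cells, close to the medians of 5.90% and 3.20% over all protein-coding genes, against 43.4% and 14.4% for the HOX genes. Since 33 of 39 HOX genes are at most 10000 bp long, this contrast also sets mostly long genes against mostly short ones. PRAC1, next to HOXB13, had 79.5% in proliferating cells and no senescent peak. EVX2 beside HOXD13 had 46.4% and 4.58%, and EVX1 beyond HOXA13 had 22.4% and none; both are homeobox genes. CBX5, which encodes a heterochromatin protein, had 12.0% and 5.20%. By the fold 9 of 12 were lower, against 57.8% of all genes. SMUG1 was the only neighbour higher in senescent cells by the fold, with 1.46% and 3.33%.

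Partners and regulators of HOX proteins had low medians. The TALE homeodomain proteins PBX, MEIS and PKNOX bind DNA together with HOX proteins; their 9 genes had medians of 7.61% in proliferating and 2.70% in senescent cells, and 7 of 9 were lower by the fold, against 57.8% of all genes. PBX2, a short gene, had 57.4% and 65.1%, MEIS1 15.0% and 5.89%, MEIS3 27.4% and 19.5%, and PKNOX1 7.61% and 1.48%. Among 11 regulators of HOX genes the medians were 7.91% and 3.11%, and 6 of 11 were lower by the fold, near the 57.8% of all genes. RARG, a retinoic acid receptor gene, had 48.8% and 39.3%, KDM6B, which encodes a demethylase that removes the Polycomb mark, 60.3% and 38.5%, GMNN 18.9% and 8.96%, and CYP26A1, which encodes an enzyme that breaks down retinoic acid, 7.91% and none.

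Other developmental transcription factor genes had proliferating medians between those of these groups and that of the HOX genes. The 19 ParaHox and related homeobox genes had medians of 22.5% and 12.9%, with 13 of 18 lower by the fold, against 57.8% of all genes. DLX2 had 84.6% and 38.4%, DLX1 74.4% and 21.9%, GBX2 67.5% and 15.0%, GSX2 80.7% and 56.9%, and GBX1, higher in senescent cells, 6.41% and 12.9%. The 11 regulators of lung mesenchyme had medians of 34.4%, 19.2% and 6.29% in the 3 states, and 9 of 11 were lower by the fold in senescent cells, against the same 57.8%. Their senescent and quiescent medians stood above the 14.4% and 0% of the HOX genes. Their means of 53.0%, 25.2% and 5.65% also exceeded the HOX means of 46.2%, 22.7% and 2.12%. FOXF1, a lung mesenchyme gene, had 100% and 35.1%, TBX3 83.7% and 19.2%, FOXF2 95.9% and 51.8%, and TCF21 73.8% and 29.7%. The 8 regulators of limbs and body ends had medians of 8.15% and 3.25%, and 6 of 8 were lower, against 57.8%. PITX1, a hindlimb gene, had 65.3% and 33.2%, PAX9 33.0% and 4.34%, SHOX2 30.6% and 17.5%, and LMX1B, with 8.52% and 15.3%, and PAX1, with none and 2.16%, were higher. The 7 lists were compared with the HOX genes by value alone, since single libraries allow no test of a difference.

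**Figure D5:**
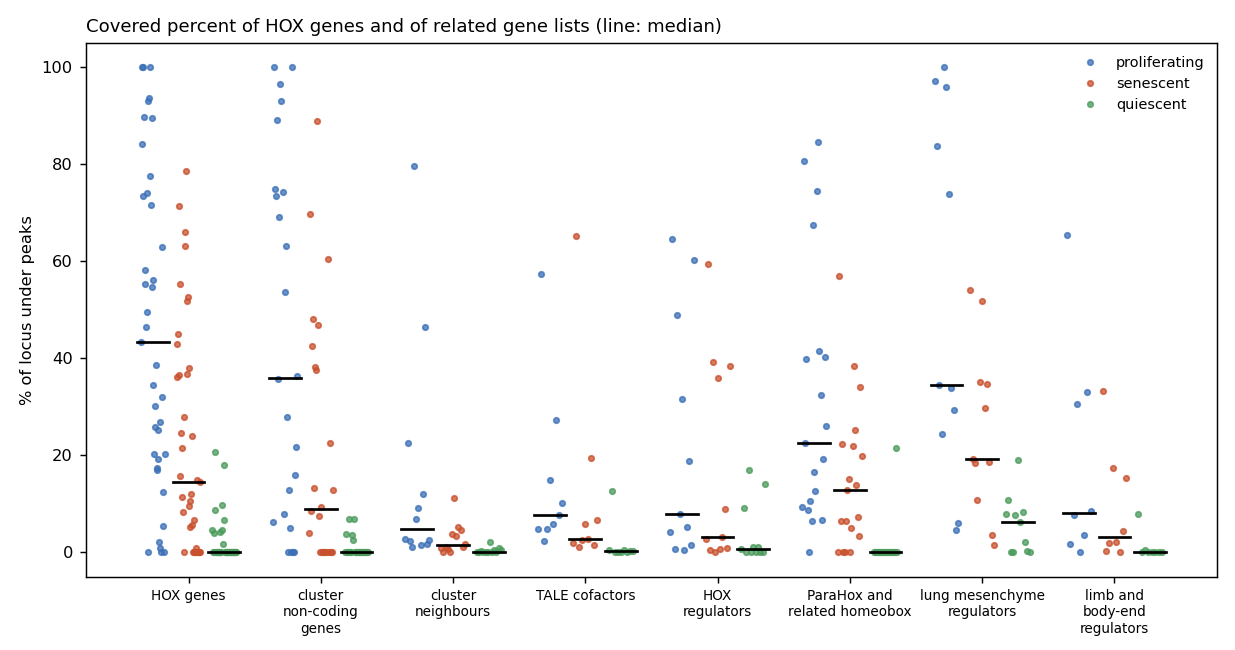
Percent of the locus under peaks for the 39 HOX genes and the members of 7 related lists, in proliferating (blue), senescent (orange) and quiescent (green) cells; each point is a gene and each black line a median. The HOX genes and the non-coding genes of their clusters have the highest proliferating medians, and the cluster neighbours the lowest.

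As a check of the cell type, all 10 fibroblast genes looked at had a proliferating peak, against 83.4% of all protein-coding genes. Their cover ran from 4.49% at DCN to 97.2% at COL1A1, with PDGFRB at 52.7%. All of 6 epithelial, 4 immune and 4 endothelial genes also had such a peak, and the epithelial gene SFTPC was 69.9% covered. The medians of these 3 lists were 12.4%, 3.83% and 6.77%, against 28.6% for the fibroblast genes. In senescent cells 8 of 10, 5 of 6, 3 of 4 and 4 of 4 had a peak, against 80.3% of all genes, and the fibroblast genes DCN and LUM had none. Peaks are not a measure of expression, so the lists do not bear on the identity of the cells. The 3 lists hold 101802, 85564 and 9736 peaks over 85.4, 54.1 and 4.12 Mb.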

How the data were processed

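The 3 deposited RH-MNase peak lists were used as the authors gave them, 1 per library, with no replicates and no read depth. The deposited score of a peak takes whole values from 10 upward on an unstated scale and served to rank peaks within a list alone. MACS2 (2.2.7.1), Bowtie2 (2.4.5) and FastQC (0.11.9) are named, with GRCh38, per the submitters' processing notes. The sources used here do not state peak-calling settings or any control library. Genes came from the RefSeq table of GRCh38.p14, without the Y chromosome, the mitochondrial genome and unplaced or alternate sequences. No strand is given there, so both ends of a gene were used. Covered percent was computed with Python 3.11.15 and pandas 2.3.3 and checked on simulated peaks. With 1 list per state no test was possible: states were compared by a fold of 1.5, and intervals cover counting error only. Depth is unknown, so its part in the number and width of peaks was not tested.

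HOX genes were named, except 1 that is not reported here and stays in counts and means, but not in the HOXA2 to HOXA7 difference; of the other lists up to 4 genes with the largest difference and those against the majority, and further non-coding, neighbour and marker genes chosen after their values were seen. The members and lists were chosen with earlier results of these data known. Alternatives were score thresholds, list lengths, flanks, peak width, fold, overlap and position limits. One more, without HOXA3, HOXB3, HOXC4 and HOXC5, whose spans overlap other members, was added after seeing the data.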

Additional observations from a re-analysis of the deposited data

How the results depend on the processing

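The lists give no depth, so no value can be set against sequencing effort, and 1 list per state leaves every difference without a replicate check. No paired analysis was possible because each state has 1 library. A value was taken as moved when it changed by more than 1.5 times. At or above the median score, 17 members had a senescent gene-end peak, and 6 a quiescent peak, 5 of them at a gene end, with a quiescent mean of 1.25%. With as many peaks as the quiescent list, the means were 24.4% and 4.74% in proliferating and senescent cells, 14 and 5 members had a peak, 14 and 4 at a gene end, and 13 were lower in senescent cells; the difference between anterior and posterior means became 45.5 points in proliferating and 3.54 in senescent cells (25.9 and 18.6 with all peaks), and that between HOXA2 to HOXA7 and HOXA9 to HOXA13 became 56.1 and 0.865 points (26.7 and 28.0). At the senescent covered length 17 members were lower and 5 higher. With no flank 19, 13 and 2 members had a peak at the very end of the gene, and 6 a quiescent peak, with a mean of 1.31%; with flanks of 500 bp 4 had a quiescent gene-end peak. Without peaks over 2000 bp the means were 16.0% and 13.5%, and 11 members were higher in senescent cells. The proliferating differences reversed, to -12.4 points between anterior and posterior and -15.5 points within HOXA, and the senescent ones were 7.69 and 6.86. That filter takes out wide proliferating peaks but keeps narrower senescent peaks at the same places. Counting any difference, 1 member was higher. Without HOXA3, HOXB3, HOXC4 and HOXC5, the anterior to posterior difference was 14.6 and 9.21 points. The cause of these changes was not tested. The remaining 111 of these values stayed within 1.5 times.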
